A study of Mus musculus with 18 samples.

Results

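RNA sequencing of AFSCs was compared with that of EpiLCs across all genes. AFSCs are mouse stem cells that were derived from blastocysts and kept growing in Activin A and bFGF, and EpiLCs are epiblast-like cells, a state that ESCs pass through when they leave naive culture. The 3 samples labelled AFSC and the 3 labelled EpiLC were chosen by their labels from 18 samples of 6 cell types, and 16901 of 35773 annotated genes had enough counts to be tested. The names of the AFSC samples' files give them as ASCs from blastocysts, another cell type of the series, and the labels were followed here. Every sample carried the labels wild type and strain 129S2/SvPasCrl. Per the labels AFSCs were primed pluripotent cells in Activin A and FGF2, and the study's methods add that they came from E3.5 blastocysts in N2B27 on fibronectin, without feeder cells or serum replacement. The study describes crosses of 129/sv females with reporter males of mixed background as the source of AFSC lines and of the EpiLCs in its qRT-PCR, so that the label's strain may not be the whole background of either group. The medium and the days of EpiLC induction, and the number of lines behind either group, are not given in the sources used here, so that line, culture and cell state cannot be told apart in any difference below. EpiSCs, the second lasting primed culture of the series, and naive ESCs, which grew in 2i and LIF, were used beside them, ESCs for their levels and EpiSCs for their levels and for a second comparison of named genes. Values by chromosome were also set against all 18 samples.

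Pluripotent cells of the mouse pass from a naive state, that of the preimplantation epiblast, to a primed state in which the postimplantation epiblast answers to Nodal, FGF and Wnt signals and prepares to form the primitive streak. EpiLCs stand for the first steps after naive pluripotency and can give rise to primordial germ cells for a short time, whereas primed lines kept in Activin A and FGF self-renew for many passages. During this transition the genome gains DNA methylation, which in somatic lineages silences germ cell genes with CpG-rich promoters.

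The 6 libraries held between 7046111 and 9906473 fragments assigned to genes, and all 3 AFSC totals lay below all 3 EpiLC totals. AFSC 1 stood apart, with 14.4% of its counts in mitochondrially encoded genes against 1.51% and 1.92% in AFSC 2 and 3 and 2.64% to 4.31% in the EpiLC samples. Replicate 1 had the highest share of its group in EpiLCs (4.31%), EpiSCs (4.59%) and ESCs (8.08%) as well. Lists that changed without AFSC 1 and EpiLC 1 are therefore given both ways. Levels below are counts divided by a size factor per sample and by the exonic length in kb (normalized read count per kb), and fold changes are log2 of AFSC over EpiLC, so that positive values mean higher in AFSCs. Values with ± are means and SDs of the 3 samples of a group, with AFSCs first where no group is named. The core pluripotency factor genes Pou5f1, Sox2 and Nanog were present in every sample. The levels of Pou5f1, which encodes OCT4, were 7109, 8338 and 6787 in the AFSC samples and 7155, 5637 and 5924 in the EpiLC samples (log2 fold change 0.25, adjusted p = 0.31 by edgeR). The 2 groups overlapped. Fgf5 and Pou3f1, which mark the early postimplantation epiblast, were present in the 3 EpiLC samples at levels of 252, 259 and 287 and of 550.0, 677 and 760.1.

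Of the 16901 genes, 3826 (22.6%) were higher and 4131 (24.4%) lower in AFSCs at an adjusted p below 0.05 (edgeR quasi-likelihood test, Benjamini-Hochberg adjustment over all genes tested), and the median log2 fold change was -0.03. The counts of the lists below are to be read against these shares of all genes. Under stricter limits, which also asked for a difference of over 2 on the log2 scale and for a log2(level + 0.1) averaging over 3 in one of the groups, 567 (3.35%) were higher and 769 (4.55%) lower. Of the 7957 genes called, 7393 did not overlap between the 2 groups of samples. Over all genes tested, all AFSC samples lay above all EpiLC samples in 24.0% and below them in 26.6%. Among the genes highest in AFSCs was Cd59a, which encodes a surface inhibitor of complement, with levels of 677, 503 and 523 in the AFSC samples and 4.47, 2.93 and 2.95 in the EpiLC samples (log2 fold change 7.35, SE 0.21, adjusted p = 8.1e-15). Sfn, which encodes 14-3-3 sigma, had levels of 1995, 2713 and 1986 in the AFSC samples and 71.6, 75.1 and 84.3 in the EpiLC samples (log2 fold change 4.85, SE 0.21, adjusted p = 1.39e-12). In both genes the lowest AFSC sample exceeded the highest EpiLC sample by more than an order of magnitude. The largest rises in level also included Lgals1, which encodes galectin-1 (2896 ± 258 against 203 ± 41.0), the transcription factor gene Atf5 (2208 ± 367 against 159 ± 18.4) and S100a6, which encodes a calcium-binding protein (2145 ± 1108 against 46.4 ± 9.13). S100a6 ranged widely among the AFSC samples (3403, 1722 and 1311), and each of them was far above the EpiLC samples (56.6, 43.4 and 39.1).

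Among the abundant genes of EpiLCs that were near 0 in AFSCs was Rhox5, an X-linked homeobox gene (chromosome X, 37804842 to 37808876 on GRCm38). Its levels were 11386, 7016 and 6949 in the EpiLC samples and 7.14, 3.07 and 4.12 in the AFSC samples (log2 fold change -10.78, SE 0.39, adjusted p = 1.29e-13). Rps4l, a copy of a ribosomal protein gene, had levels of 8461, 5567 and 5916 in the EpiLC samples and 0, 2.46 and 1.10 in the AFSC samples; since the summed count in AFSCs was 3, the fold is given as a ratio of summed counts (ratio 5281, 95% interval 1807 to 25610.0). For genes with no count in a group the fold is a lower bound, computed against 3 counts over that group. Such a bound, like the intervals of ratios, covers counting error only. Ribosomal copies share sequence with their parent genes, and the files counted fragments at each place they mapped to, so that the levels of Rps4l and of Rpl10l (476, 370.1 and 385 in EpiLCs and 0 in AFSCs, at least 356-fold lower) are uncertain. Large falls in level were also found in the housekeeping genes Ptma (27140.4 ± 4300.2 in EpiLCs against 13314 ± 2289 in AFSCs) and Fth1, which encodes ferritin heavy chain (12991 ± 1019.6 against 3765 ± 635, log2 fold change -1.79, adjusted p = 3.28e-08).

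By fold the leading genes were often silent in one group. Of the 10 highest in AFSCs with a gene name, Krtdap of keratinocyte differentiation, the stem cell antigen gene Ly6a and the interferon-induced GTPase gene Iigp1 had no count in EpiLCs, with AFSC levels of 29.7, 6.82 and 9.15, of 23.5, 34.6 and 34.4 and of 18.98, 8.90 and 6.64 (at least 9.49-fold, at least 36.8-fold and at least 33.4-fold higher). Pla2g7, which encodes the hydrolase of platelet-activating factor, had 79.7, 41.4 and 60.98 in the AFSC samples and 0, 0.609 and 0 in the EpiLC samples (ratio 255, 95% interval 70.1 to 2109). The other 6 were BC064078, X-linked Klhl4, Rtl8c and Tcp11x2, and Cd59a and Sp5. Rtl8c, a gene derived from a retrotransposon, had levels of 383, 574 and 783 in the AFSC samples and 5.76, 4.41 and 8.01 in the EpiLC samples (log2 fold change 6.54, SE 0.46, adjusted p = 1.19e-09). Of the 10 lowest, 8 had no count in any AFSC sample. They were X-linked Fmr1nb with EpiLC levels of 482, 350.3 and 313 (at least 303-fold lower), the lysosomal enzyme gene Hexa (171 ± 16.7 in EpiLCs), Klhl22, which encodes a ubiquitin ligase adaptor (88.8 ± 3.62), Nmral1, which encodes a redox sensor (117 ± 26.2), with Rpl10l, Mael, Hormad1 and Fkbp6.

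**Figure D1:**
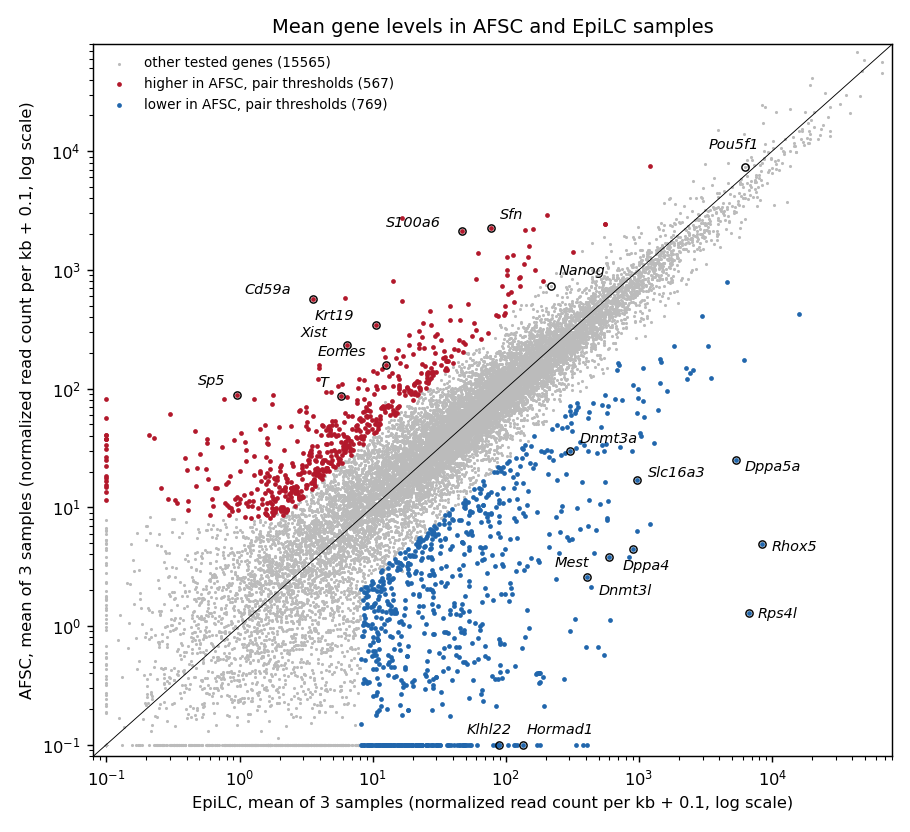
Mean level (normalized read count per kb + 0.1, log axes) of each of the 16901 genes tested in EpiLCs and AFSCs, n = 3 samples each. Red points are the 567 genes higher and blue points the 769 genes lower in AFSCs past the stricter limits, grey points are the other genes, and circles mark named genes. Rhox5, Rps4l and Dppa5a lie far on the EpiLC side and Cd59a, Sfn and Sp5 on the AFSC side, while Pou5f1 lies by the diagonal.

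Germ cell genes of the kind that DNA methylation silences had the lowest median fold change of all lists examined. Of 30 such genes tested, 29 were lower in AFSCs, none was higher and 1, the bromodomain gene Brdt, was not called (1.84, 0.905 and 2.03 in the AFSC samples and 1.81, 1.21 and 2.51 in the EpiLC samples; log2 fold change -0.19, adjusted p = 0.756), beside 24.4% of all genes lower. At the stricter limits 23 of the 30 were lower, beside 4.55% of all genes, and in 28 all AFSC samples lay below all EpiLC samples, as they did in 26.6% of all genes tested. The median log2 fold change was -6.99, or -5.27 with the 13 members that had no count in any AFSC sample set at their bound, against -0.03 over all genes. In bulk samples a smaller share of cells with a transcript and less transcript per cell cannot be told apart. Mael, Hormad1 and Dazl, which act in piRNA defence, in meiotic chromosome pairing and in germ cell translation, had no count in any AFSC sample. The promoter windows of these 3 genes, and that of the meiotic cochaperone gene Fkbp6, are shown because the silencing of this class is tied to CpG-rich promoters. They run from 250 bases before to 50 bases after the annotated start, 5′ to 3′ on the gene's strand, from RefSeq (GRCm38.p6): Mael chr1:166238695-166238994 (minus strand), Hormad1 chr3:95559427-95559726 (plus), Dazl chr17:50293571-50293870 (minus) and Fkbp6 chr5:135349995-135350294 (minus). Capitals mark CACGTG, the E-box that MGA, MAX and MITF-family factors can bind and that reads the same on both strands, and TCCCGC or its reverse complement GCGGGA, the core that E2F6 can bind.
Mael: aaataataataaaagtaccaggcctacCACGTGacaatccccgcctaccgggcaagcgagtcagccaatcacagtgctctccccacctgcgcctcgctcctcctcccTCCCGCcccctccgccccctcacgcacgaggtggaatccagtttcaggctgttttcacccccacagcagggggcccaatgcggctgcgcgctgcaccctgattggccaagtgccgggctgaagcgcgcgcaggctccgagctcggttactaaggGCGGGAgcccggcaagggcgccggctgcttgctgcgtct
Hormad1: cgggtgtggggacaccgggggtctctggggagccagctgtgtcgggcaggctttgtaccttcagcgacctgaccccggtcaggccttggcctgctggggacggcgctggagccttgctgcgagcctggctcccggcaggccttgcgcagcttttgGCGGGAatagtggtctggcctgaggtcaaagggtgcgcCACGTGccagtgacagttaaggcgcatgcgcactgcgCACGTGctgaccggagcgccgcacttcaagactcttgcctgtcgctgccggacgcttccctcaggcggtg
Dazl: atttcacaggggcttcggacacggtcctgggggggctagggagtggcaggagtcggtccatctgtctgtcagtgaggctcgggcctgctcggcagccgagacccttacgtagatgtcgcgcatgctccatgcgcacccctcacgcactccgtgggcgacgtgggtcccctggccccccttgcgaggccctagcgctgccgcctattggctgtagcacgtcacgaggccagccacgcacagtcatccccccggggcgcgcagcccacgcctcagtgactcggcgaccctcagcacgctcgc
Fkbp6: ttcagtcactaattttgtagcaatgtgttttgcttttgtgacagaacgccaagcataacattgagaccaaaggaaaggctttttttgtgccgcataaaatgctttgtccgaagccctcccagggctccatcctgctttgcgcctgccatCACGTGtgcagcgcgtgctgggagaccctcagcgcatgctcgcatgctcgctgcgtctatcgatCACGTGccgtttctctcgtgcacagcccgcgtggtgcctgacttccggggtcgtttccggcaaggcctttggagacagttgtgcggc

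These windows held 24 CpGs in Mael, 24 in Hormad1, 28 in Dazl and 21 in Fkbp6, against a median of 7.0 in 27025 windows of all RefSeq genes. The window of Mael held CACGTG 1 time and TCCCGC or GCGGGA 2 times, that of Hormad1 2 times and 1 time, that of Fkbp6 CACGTG 2 times, and the window of Dazl held neither. Windows were at hand for 26 of the 30 germ cell genes. Of these, 12 (46.2%) held CACGTG and 11 (42.3%) TCCCGC or GCGGGA, whose letters do not overlap, and 16 (61.5%) held either, while 7.24%, 20.1% and 25.2% of all windows did. The median of the germ cell genes was 18 CpGs. In 20 of 25 windows of primitive streak genes, a list described further on, the median was 14.5 CpGs, 1 (5.0%) held CACGTG and 8 (40.0%) TCCCGC or GCGGGA. The counts are descriptions of letters in these windows, and binding and methylation were not measured here.

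The levels of Mael were 124, 108 and 114 in EpiLCs and 0 in the 3 AFSC samples, at least 170.3-fold lower. Those of Hormad1 were 184, 103 and 117 and 0 (at least 195-fold lower), those of Dazl 51.8, 39.1 and 42.6 and 0 (at least 111-fold lower), and those of Fkbp6 188, 178 and 174 and 0 (at least 270.0-fold lower). In all 4 the EpiLC samples lay close together except that Hormad1 was highest in EpiLC 1. Genes of meiotic chromosome structure followed. Syce1 of the synaptonemal complex had levels of 95.8, 81.8 and 92.4 in the EpiLC samples and 0.922, 0 and 0 in the AFSC samples (ratio 335, 95% interval 59.8 to 13280.0), and the cohesin gene Stag3 had levels of 45.5, 47.2 and 44.4 in the EpiLC samples and 1.41, 1.01 and 1.45 in the AFSC samples (log2 fold change -5.13, SE 0.23, adjusted p = 3.15e-12). Sycp3, another synaptonemal complex gene, was reduced and not absent, with 184, 104 and 116 in the EpiLC samples and 29.8, 9.16 and 9.02 in the AFSC samples (log2 fold change -3.12, SE 0.39, adjusted p = 2.79e-06). AFSC 1 was the highest of the AFSC samples there and still lay below every EpiLC sample. Among piRNA pathway genes the RNA helicase genes Mov10l1 (10.2, 15.4 and 7.93 against 0, at least 41.2-fold lower) and Ddx4 (31.6, 32.6 and 34.2 against 0, 0 and 0.364; ratio 240.5, 95% interval 42.8 to 9532) fell. Tex19.1, which acts against retrotransposons, was reduced and still expressed, with levels of 181, 289.7 and 259 in the EpiLC samples and 8.63, 23.5 and 18.3 in the AFSC samples (log2 fold change -3.83, SE 0.41, adjusted p = 4.86e-07). X-linked Taf7l, a testis form of a general transcription factor subunit, had levels of 95.2, 89.4 and 88.2 in the EpiLC samples and 0.600, 0.516 and 0 in the AFSC samples (ratio 262, 95% interval 72.2 to 2168). Rhox2d was called lower although its samples overlapped (3.37, 0 and 7.81 in EpiLCs, 0 in AFSCs), on 7 counts in all (adjusted p = 0.0783, 0.0922, 0.102, 0.0765 and 0.179 without AFSC 1, AFSC 2, AFSC 3, EpiLC 1 and EpiLC 3 in turn). It, Rhox2a and the alpha-tubulin genes Tuba3a and Tuba3b belong to families of near copies, so that their own levels are uncertain.

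EpiSCs had low levels of these genes as well. The mean EpiSC levels of Mael, Hormad1 and Dazl were 0.170 ± 0.294, 0.170 ± 0.294 and 0.0999 ± 0.173. Between AFSCs and EpiSCs 3 of the 30 were higher and 1 lower, and 39.4% of all genes were called in either direction. Members without a count in either culture, such as Stk31 and Rhox2a, could not be called. The small number of calls is therefore no measure of likeness. Those called were Sycp1, Tex19.1 and Piwil2, higher in AFSCs, and Stag3, lower. Since the AFSC samples enter both comparisons, the 2 are not independent. Naive ESCs gave levels of 432 ± 124 for Dazl, 120.3 ± 56.6 for Hormad1 and 4.15 ± 0.815 for Mael, so that Mael was higher in EpiLCs than in ESCs in level while Dazl was lower, a difference that was not tested.

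**Figure D2:**
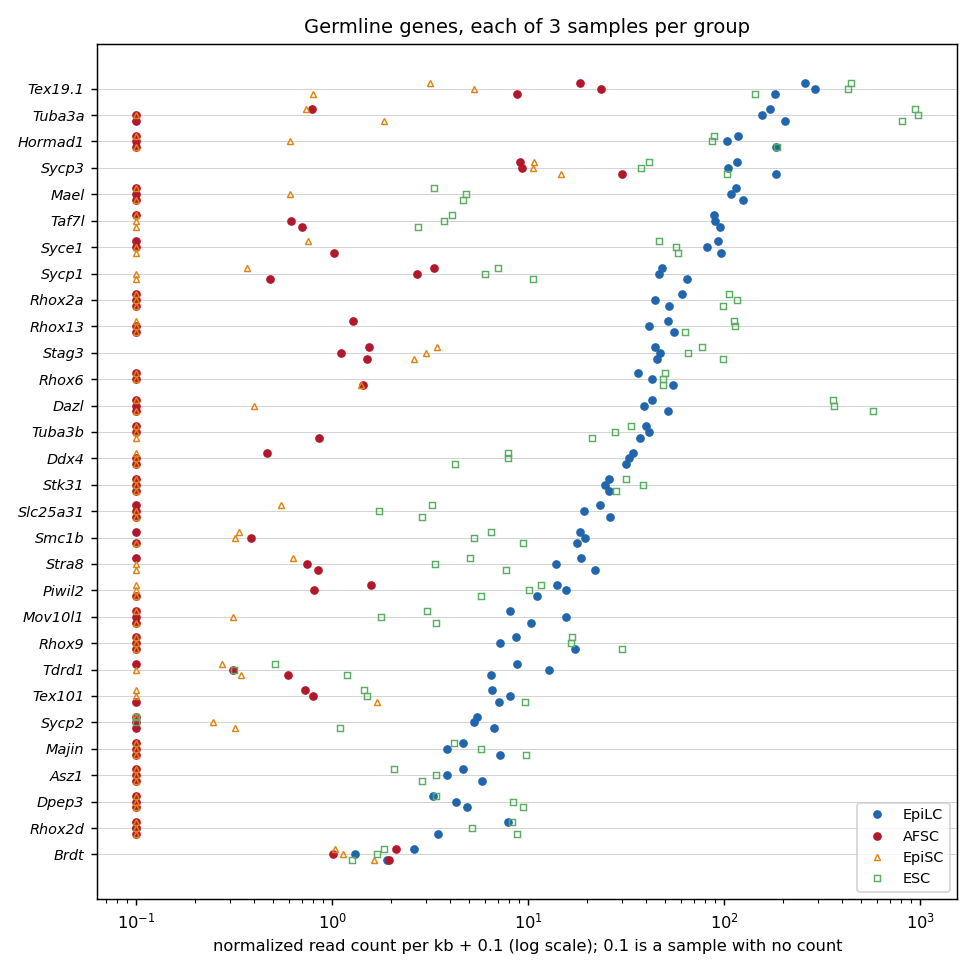
Levels (normalized read count per kb + 0.1, log axis) of the 30 germ cell genes, one line of points per gene, in each sample of EpiLCs, AFSCs, EpiSCs and ESCs (n = 3 each; a point is a sample). For most genes the AFSC and EpiSC points lie at the bottom of the axis and the EpiLC points to the right of 1, and the points of Brdt lie together in all groups.

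Genes of enzymes and other factors that act in DNA methylation were mostly lower in AFSCs too. Of 13 tested, 8 were lower, none was higher and 5 were not called, beside 24.4% of all genes lower. The median log2 fold change was -0.67. The list shares Dppa3 and Tet2 with the naive genes, Dnmt3a and Dnmt3b with the early epiblast genes and Trim28 with the core genes. Dppa3 is in the list of primordial germ cell specification as well. The widest difference was in Dnmt3l, the catalytically inactive partner of the de novo methyltransferases (chromosome 10, 78041947 to 78063622). Its levels were 386, 408 and 432 in the EpiLC samples and 2.70, 2.32 and 2.43 in the AFSC samples (log2 fold change -7.35, SE 0.29, adjusted p = 6.08e-13). The de novo methyltransferase genes followed, Dnmt3a with 241, 334 and 338 in the EpiLC samples and 26.0, 30.7 and 32.9 in the AFSC samples (log2 fold change -3.35, SE 0.16, adjusted p = 1.19e-11) and Dnmt3b with 2442, 2748 and 2789 in the EpiLC samples and 876, 1133 and 1059 in the AFSC samples (log2 fold change -1.38, SE 0.14, adjusted p = 2.12e-07). No AFSC sample reached the range of the EpiLC samples in any of the 3, and Dnmt3b remained an abundant transcript in AFSCs. The maintenance factor gene Uhrf1 fell by less (428 ± 67.2 against 678 ± 83.2, log2 fold change -0.67, adjusted p = 0.00436). Dnmt1, which encodes the maintenance methyltransferase, was at the margin (257 ± 19.14 against 328 ± 22.4; log2 fold change -0.36, adjusted p = 0.0259; adjusted p = 0.0775, 0.0633, 0.0812 and 0.0788 without AFSC 1, AFSC 3, EpiLC 2 and EpiLC 3 in turn). Among the demethylation enzymes Tet1 had levels of 38.91, 23.5 and 35.4 in the AFSC samples and 75.6, 95.4 and 85.0 in the EpiLC samples (log2 fold change -1.39, SE 0.23, adjusted p = 6.82e-05), and Tet3 (-0.15, adjusted p = 0.557) and the glycosylase gene Tdg (0.15, adjusted p = 0.553) were not called. Zfp57, which protects imprints, was not called either (269.6, 140.3 and 121 in the AFSC samples and 137, 112 and 101 in the EpiLC samples; log2 fold change 0.59, adjusted p = 0.0586) but passed the threshold, higher in AFSCs, when a library was left out (adjusted p = 0.0357, 0.0152 and 0.0425 without AFSC 2, AFSC 3 and EpiLC 1 in turn).

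Genes of the 2-cell-like state, which appears in rare cells of ESC cultures, showed the same direction. Of 15 tested, 14 (93.3%) were lower in AFSCs, beside 24.4% of all genes, and 1, Usp17la, was not called (adjusted p = 0.0282 without EpiLC 1). The median log2 fold change was -4.95, or -1.93 with the 7 members without a count in AFSCs at their bound. Their EpiLC levels were low to moderate. Zscan4d, a marker of that state, had levels of 22.9, 13.2 and 19.8 in EpiLCs and 0 in AFSCs (at least 35.4-fold lower), and Zscan4f had 93.8, 56.0 and 59.5 in the EpiLC samples and 1.37, 0 and 0 in the AFSC samples (ratio 172, 95% interval 47.3 to 1425). Tcstv1, Tcstv3, Tmem92 and Zfp352 had means between 1.001 and 4.19 in EpiLCs and no count in AFSCs, and 2 of these calls rested on single libraries (Tcstv3, adjusted p = 0.0519 and 0.06 without AFSC 3 and EpiLC 3 in turn; Zfp352, adjusted p = 0.05 without EpiLC 2). Zscan4, Usp17l and Tcstv genes are families of near-identical copies, so that a member's own level is uncertain. Without AFSC 1 and EpiLC 1, 12 were lower. Of 12 genes of primordial germ cell specification, a fate that EpiLCs can take, 1 was higher, 6 were lower and 5 were not called. Their median was -0.66. Among all genes 22.6% were higher and 24.4% lower. The higher member, Tfap2c, was at the margin and is given below. Eif1a, a translation initiation factor gene of the 2-cell list and among its 14 lower members, was expressed throughout (336, 397 and 321 in the AFSC samples and 568, 478 and 487 in the EpiLC samples, log2 fold change -0.54, adjusted p = 0.00147). It made most of the summed level of the 2-cell list in both groups (344.4, 398.5 and 323.3 in the AFSC samples and 828.5, 647.2 and 679.0 in the EpiLC samples).

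The naive pluripotency genes, which are shut as cells leave the preimplantation state, were mostly lower in AFSCs: 18 of 23 tested were lower, 3 were higher and 2 were not called, beside 24.4% of all genes lower, with a median log2 fold change of -2.54. Dppa5a, which encodes an RNA-binding protein of naive cells, had levels of 5383, 4995 and 5534 in the EpiLC samples and 21.8, 39.3 and 13.4 in the AFSC samples (log2 fold change -7.74, SE 0.27, adjusted p = 1.24e-13). Dppa2 and its neighbour on chromosome 16, Dppa4, whose products act together on chromatin, fell together. Dppa4 was counted here with the core pluripotency genes and not among the 23. Dppa4 had 1066, 822 and 820.4 in the EpiLC samples and 4.39, 6.04 and 2.70 in the AFSC samples (log2 fold change -7.68, SE 0.26, adjusted p = 6.79e-14) and Dppa2 had 487, 436 and 454 in the EpiLC samples and 5.53, 2.38 and 4.25 in the AFSC samples (log2 fold change -6.82, SE 0.22, adjusted p = 3.14e-14). Both stood higher in EpiLCs than in naive ESCs in level (239 ± 52.0 and 116 ± 2.87). Dppa3, which encodes STELLA, had levels of 205, 118 and 127 in the EpiLC samples and 0, 2.60 and 0 in the AFSC samples (ratio 168, 95% interval 46.2 to 1393), and Zfp42, which encodes REX1, had 104, 84.7 and 76.2 in the EpiLC samples and 1.43, 0.615 and 0 in the AFSC samples (ratio 141, 95% interval 48.1 to 688). In each of these genes the AFSC samples lay far below the EpiLC samples. Morc1, whose product silences transposons in the germ line, and Nr0b1, which encodes DAX1, went from 82.5 ± 6.64 and 65.9 ± 10.5 in EpiLCs to 0.260 ± 0.231 and 0.191 ± 0.331 in AFSCs. Fgf4, the autocrine FGF of naive cells, was reduced to a lesser degree, with 449.5, 450.5 and 448 in the EpiLC samples and 78.0, 71.0 and 76.5 in the AFSC samples (log2 fold change -2.58, SE 0.13, adjusted p = 1.24e-11).

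Klf2, Klf4 and Klf5, the 3 naive genes that were higher, encode Krüppel-like factors. Klf2 had levels of 104, 77.7 and 74.6 in the AFSC samples and 54.4, 39.8 and 41.1 in the EpiLC samples (log2 fold change 0.92, SE 0.21, adjusted p = 0.00132) and Klf5 of 18.8, 44.4 and 53.6 in the AFSC samples and 3.36, 15.9 and 10.6 in the EpiLC samples (log2 fold change 1.93, SE 0.52, adjusted p = 0.0051), and Klf4 had a mean of 13.1 ± 1.57 in AFSCs against 4.35 ± 0.426 in EpiLCs. The groups did not overlap in any of the 3, and all 3 were far below their levels in ESCs (1904 ± 309 for Klf2, 312 ± 155 for Klf5 and 786 ± 108 for Klf4). Of 9 core pluripotency genes tested, 1 (11.1%) was higher, 3 (33.3%) were lower and 5 were not called. Of all genes, 22.6% were higher and 24.4% lower. Dppa4, given above, was among the core genes that were lower. Nanog was the one that rose, with levels of 807, 669 and 738 in the AFSC samples and 263, 193 and 204 in the EpiLC samples (log2 fold change 1.75, SE 0.16, adjusted p = 6.38e-08). Sox2 overlapped (709, 555 and 429 in the AFSC samples and 539, 378 and 410.0 in the EpiLC samples; log2 fold change 0.35, adjusted p = 0.121), although it passed the threshold, higher in AFSCs, when a library was left out (adjusted p = 0.0305 and 0.0351 without AFSC 3 and EpiLC 1 in turn). Utf1, a chromatin-bound factor of pluripotent cells, had 2023 ± 378 in AFSCs and 3824 ± 150.4 in EpiLCs (log2 fold change -0.92, adjusted p = 0.00114).

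Genes of the early postimplantation epiblast, the stage that EpiLCs stand for, divided. Of 23 tested, 15 (65.2%) were lower, 4 (17.4%) were higher and 4 were not called, beside 24.4% of all genes lower and 22.6% higher. The median log2 fold change was -0.63. Pou3f1, a POU factor gene, had levels of 212, 282 and 225 in the AFSC samples and 550.0, 677 and 760.1 in the EpiLC samples (log2 fold change -1.47, SE 0.16, adjusted p = 5.44e-07). Car4, which encodes a membrane carbonic anhydrase (chromosome 11, 84957786 to 84966044), had 9.59, 11.2 and 11.1 in the AFSC samples and 536, 508 and 489.9 in the EpiLC samples (log2 fold change -5.58, SE 0.30, adjusted p = 4.21e-11), and Sox3, an X-linked SOXB1 gene, had 85.4, 105 and 93.3 in the AFSC samples and 359, 346 and 370.0 in the EpiLC samples (log2 fold change -1.92, SE 0.16, adjusted p = 1.95e-08). The AFSC samples lay below the EpiLC samples in all 3. Car4 was low in EpiSCs as well (4.74 ± 0.660), whereas Sox3 was highest there (1049 ± 65.0; log2 fold change against EpiSCs -3.46, adjusted p = 1.75e-11). Foxd3, a forkhead factor gene, had 98.1 ± 9.20 in AFSCs and 209.8 ± 16.4 in EpiLCs (log2 fold change -1.10, adjusted p = 2.79e-06). Fgf5 was higher in AFSCs, with levels of 399, 621 and 586 in the AFSC samples and 252, 259 and 287 in the EpiLC samples (log2 fold change 1.01, SE 0.17, adjusted p = 9.12e-05). Fgf5 had no count in ESCs.

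**Figure D3:**
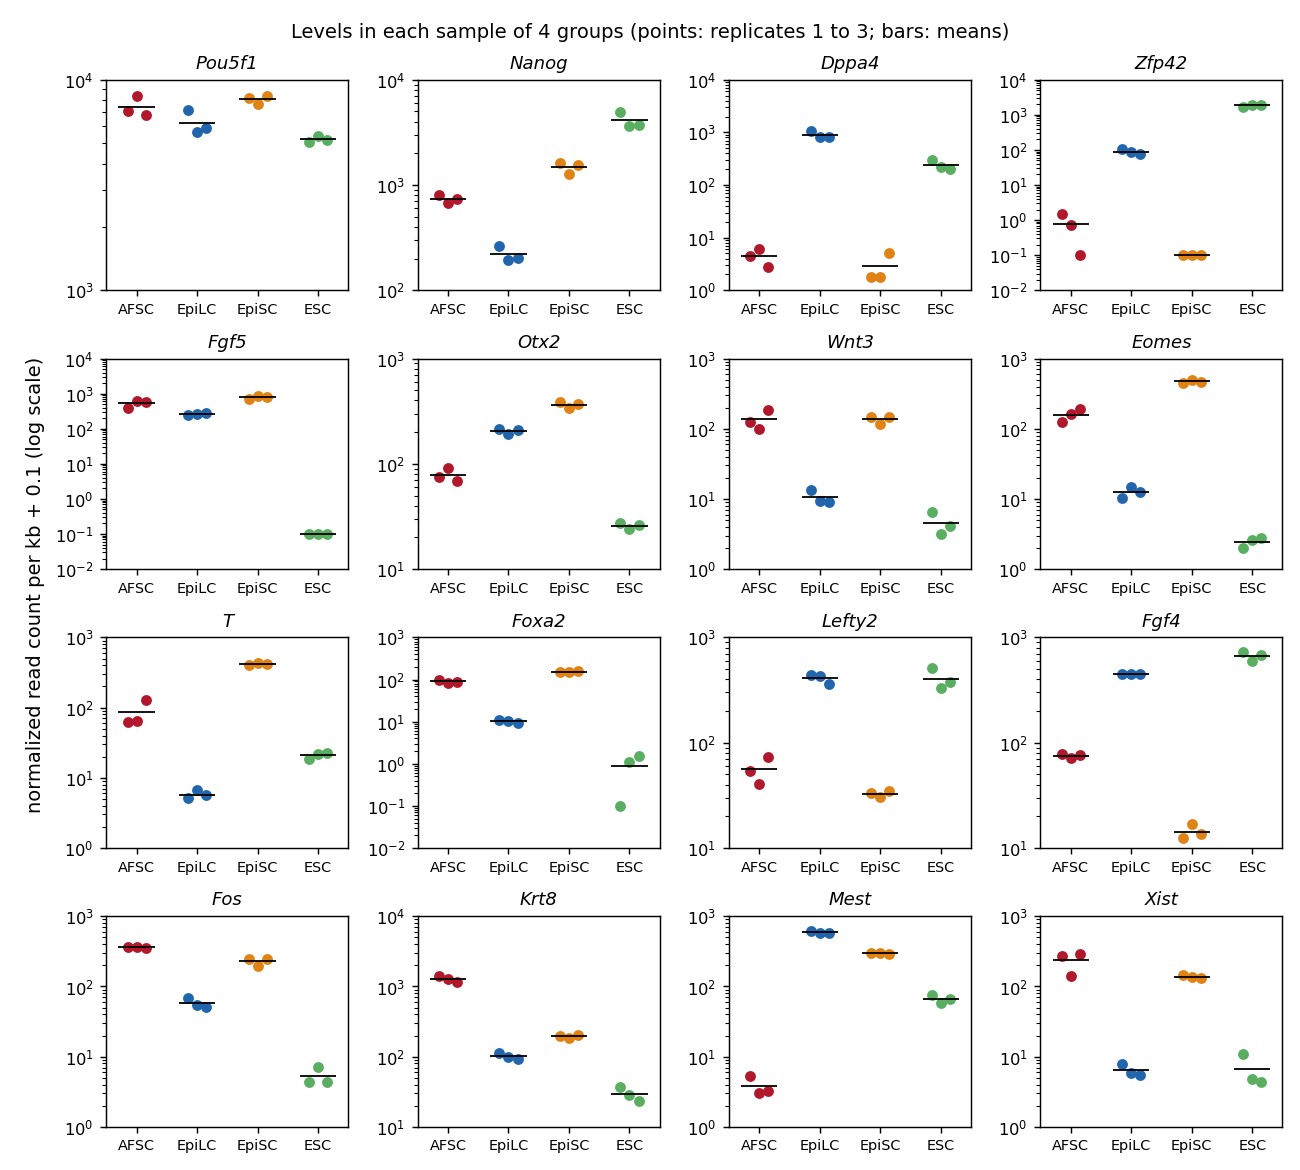
Levels (normalized read count per kb + 0.1, log axis) of 16 genes in AFSCs, EpiLCs, EpiSCs and ESCs; points are samples, bars are group means, n = 3 each. Pou5f1 lies within one order of magnitude in all groups, Dppa4, Zfp42, Lefty2, Fgf4 and Mest are lower in AFSCs than in EpiLCs, and Wnt3, Eomes, T, Foxa2, Fos, Krt8 and Xist are higher.

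Genes of the primitive streak and mesoderm, which open at gastrulation under Wnt and Nodal, were higher in AFSCs: 13 of 18 tested were higher, 2 were lower and 3 were not called, beside 22.6% of all genes higher, with a median log2 fold change of 2.46. Without AFSC 1 and EpiLC 1, 12 were higher and 1 lower. The widest difference was in Sp5, a zinc finger gene that Wnt signalling turns on (chromosome 2, 70474923 to 70477729). Its levels were 68.6, 84.3 and 114 in the AFSC samples and 1.65, 0.421 and 0.510 in the EpiLC samples (log2 fold change 6.68, SE 0.36, adjusted p = 4.02e-11). Mixl1, a homeobox gene of the streak, had 14.1, 7.57 and 16.7 in the AFSC samples and 1.01, 4.63 and 2.33 in the EpiLC samples (log2 fold change 2.18, SE 0.40, adjusted p = 0.000187), and Gsc, a homeobox gene of its anterior part, had 52.0, 44.7 and 47.4 in the AFSC samples and 3.64, 2.79 and 5.91 in the EpiLC samples (log2 fold change 3.54, SE 0.33, adjusted p = 6.01e-08). Fgf8, the FGF that drives cells out of the streak, had 776, 442 and 719.8 in the AFSC samples and 133, 87.8 and 109 in the EpiLC samples (log2 fold change 2.56, SE 0.23, adjusted p = 3.09e-08). In each of these 4 genes every AFSC sample exceeded every EpiLC sample, and in Mixl1 the lowest AFSC sample lay nearest to the EpiLC range. T, which encodes brachyury, and Eomes changed by 3.90 (SE 0.27) and 3.65 (SE 0.18) on the log2 scale, and AFSC 3 was the highest sample in both. Lhx1, a LIM homeobox gene of the anterior mesendoderm, was near 0 in EpiLCs (0.284, 0 and 0.526) and low in AFSCs (6.94, 6.54 and 4.58; ratio 23.6, 95% interval 7.69 to 117). The 2 members that were lower, Mesp2 and Cdx1, rested on 15 and 10 counts in EpiLCs and none in AFSCs. The streak genes stood higher still in EpiSCs for T (417 ± 14.3), Eomes (472 ± 27.6) and Gsc (845 ± 132), whereas Wnt3 stood at 136 ± 45.1 in AFSCs and 136 ± 15.8 in EpiSCs (log2 fold change against EpiSCs 0.02, adjusted p = 0.971).

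Of 14 definitive endoderm genes tested, 6 (42.9%) were higher, 3 (21.4%) were lower and 5 were not called, beside 22.6% of all genes higher and 24.4% lower, with a median log2 fold change of 0.65. The list shares Gsc and Lhx1 with the streak genes, Otx2 with the epiblast genes and Nodal with its pathway. Foxa2, the forkhead factor gene of anterior streak and endoderm, changed by 3.16 (SE 0.20, adjusted p = 3.22e-10), and its levels were 99.4, 82.5 and 89.6 in AFSCs. Cer1, a secreted inhibitor of anterior endoderm, was called on few counts (4.65, 5.33 and 9.53 in the AFSC samples and 0, 1.53 and 0 in the EpiLC samples; ratio 11.4, 95% interval 3.54 to 58.4). Sox17, which specifies endoderm, was near the floor in both groups (1.98, 1.70 and 0.868 in the AFSC samples and 0.484, 1.67 and 1.12 in the EpiLC samples; log2 fold change 0.37, adjusted p = 0.58), and the samples overlapped. Gata6 was low too (3.37, 2.17 and 1.62 in the AFSC samples and 0.724, 0.831 and 1.01 in the EpiLC samples; log2 fold change 1.41, adjusted p = 0.0514), and without AFSC 3 it was called higher (adjusted p = 0.0421). Gata4 was low in both groups (0.407 ± 0.361 against 1.84 ± 0.215, log2 fold change -2.13, adjusted p = 0.00755). In EpiSCs the levels of Sox17, Gata6 and Cer1 were 34.6 ± 2.76, 26.5 ± 3.09 and 114 ± 4.84, above all AFSC samples. By qRT-PCR the study reported Sox17 and Blimp1 (Prdm1) as strong in AFSCs, and Gata6 and Gata4 as particular to them. The sequenced samples did not show that pattern, and the source of the difference was not tested. Prdm1, which encodes BLIMP1, was low and lower in AFSCs (1.47, 1.90 and 3.02 in the AFSC samples and 3.37, 5.64 and 4.09 in the EpiLC samples; log2 fold change -1.02, adjusted p = 0.00987); without EpiLC 2, where it was highest, its adjusted p was 0.0706.

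The Wnt pathway, whose secreted ligands stabilise beta-catenin, was mostly higher: of 29 genes tested, 17 were higher, 4 were lower and 8 were not called, beside 22.6% of all genes higher and 24.4% lower, with a median log2 fold change of 1.11. Ligands came first. Wnt3 (chromosome 11, 103774150 to 103817957), the ligand that starts the streak, had levels of 125, 97.8 and 186 in the AFSC samples and 13.5, 9.20 and 9.05 in the EpiLC samples (log2 fold change 3.69, SE 0.24, adjusted p = 5.62e-10), and Wnt8a, another ligand of the streak, had 747, 658 and 1287 in the AFSC samples and 107, 111 and 90.7 in the EpiLC samples (log2 fold change 3.12, SE 0.22, adjusted p = 1.45e-09). Wnt11, a ligand of cell movement, had 14.6, 14.3 and 31.6 in the AFSC samples and 1.68, 1.497 and 0.776 in the EpiLC samples (log2 fold change 3.92, SE 0.35, adjusted p = 3.48e-08). In these 3 genes AFSC 3 was the highest sample and all AFSC samples lay far above the EpiLC samples. Wnt5a, the ligand of convergent movement, was near the floor (1.60 ± 0.281 against 0.435 ± 0.386, log2 fold change 1.84, adjusted p = 0.00822), and Wnt5b, Wnt6 and Wnt7b were higher at low levels, with AFSC means of 32.8, 8.46 and 8.29. Among receptors Fzd10 was higher (81.4 ± 29.5 against 27.3 ± 4.23), Fzd7 lower (176 ± 30.6 against 315 ± 20.2), and the co-receptor genes Lrp5 and Lrp6 were not called (adjusted p = 0.325 and 0.736). Among targets that feed back on the pathway, Axin2 had levels of 49.2, 56.8 and 82.6 in the AFSC samples and 6.51, 9.48 and 9.13 in the EpiLC samples (log2 fold change 2.90, SE 0.20, adjusted p = 1.03e-09). Nkd1, Notum and Rnf43 were higher as well (log2 fold change 1.11, 1.04 and 1.81), the last 2 not in every leave-one-out fit (Notum, adjusted p = 0.0528 and 0.0517 without AFSC 3 and EpiLC 3 in turn; Rnf43, adjusted p = 0.0782 without AFSC 3), and the secreted inhibitor gene Dkk1 was low and higher in AFSCs (6.66, 2.38 and 5.12 in the AFSC samples and 1.43, 1.09 and 0.441 in the EpiLC samples; log2 fold change 2.19, adjusted p = 0.00619). Of the DNA-binding partners Tcf7 and Tcf7l1 were not called, and Lef1, itself a target in many tissues, was lower (51.8, 42.2 and 42.4 in the AFSC samples and 60.9, 80.4 and 89.4 in the EpiLC samples; log2 fold change -0.76, adjusted p = 0.000428). Lgr4, an R-spondin receptor gene, was lower (90.2 ± 22.02 against 171 ± 2.83, log2 fold change -0.93, adjusted p = 0.000555). Chromosome 11, whose median level was shifted as given further on, holds 7 of the 29 (Wnt3, Fzd2, Axin2, Tcf7, Notum, Rnf43 and Znrf3). With it left out 13 of 22 were higher and 4 lower, and the median was 1.38.

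FGF signalling acts through the ERK cascade, which primed cells need. Of 28 genes of the pathway tested, 17 were higher, 5 were lower and 6 were not called, beside 22.6% of all genes higher and 24.4% lower, with a median log2 fold change of 0.77. The list shares Fgf8 with the streak genes, Fgf5, Etv4 and Etv5 with the epiblast genes and Fgf4 with the naive genes. The ligands divided: Fgf8, Fgf5 and Fgf17 were higher, while Fgf4 and Fgf15 were lower, Fgf15 with levels of 33.0, 23.1 and 27.4 in the AFSC samples and 162, 140.0 and 121 in the EpiLC samples (log2 fold change -2.34, SE 0.19, adjusted p = 1.06e-08). The receptor gene Fgfr1 had 191, 116 and 176 in the AFSC samples and 84.4, 95.3 and 88.9 in the EpiLC samples (log2 fold change 0.84, SE 0.15, adjusted p = 0.000139), and Fgfr2 was not called (log2 fold change -0.41, adjusted p = 0.205; adjusted p = 0.0299 without EpiLC 1). The immediate-early gene Fos, which ERK induces within minutes of stimulation, had levels of 359, 369 and 351 in the AFSC samples and 68.3, 54.2 and 51.0 in the EpiLC samples (log2 fold change 2.64, SE 0.15, adjusted p = 8.28e-11), and the ERK-induced genes Egr1 (684 ± 43.8 against 394 ± 13.5, log2 fold change 0.79, adjusted p = 1.65e-05) and Fosl1 (57.6, 38.7 and 17.6 in the AFSC samples and 8.12, 6.74 and 4.39 in the EpiLC samples; log2 fold change 2.53, adjusted p = 6.07e-05) rose too. The 3 AFSC samples were nearly alike in Fos and Egr1 and far apart in Fosl1. Of the Ets factor genes downstream of FGF, Etv4 rose (250.3, 311 and 314 in the AFSC samples and 93.8, 121 and 115 in the EpiLC samples; log2 fold change 1.41, adjusted p = 1.53e-07), Etv1 rose (log2 fold change 0.74) and Etv5 fell (log2 fold change -0.64). The feedback inhibitor genes also divided. Spry2 (452 ± 24.8 against 172 ± 13.8), Spred2 (249 ± 67.3 against 112 ± 12.7) and the phosphatase gene Dusp5 (119 ± 14.3 against 43.3 ± 6.53) were higher, whereas Spry1 (27.8 ± 2.23 against 58.5 ± 3.82) and Spry4 (39.6 ± 4.91 against 71.9 ± 17.999) were lower. Dusp6, the usual readout of ERK activity, was at the margin (447, 409 and 379 in the AFSC samples and 357, 306 and 321 in the EpiLC samples; log2 fold change 0.33, adjusted p = 0.0439; adjusted p = 0.12, 0.0742, 0.138 and 0.108 without AFSC 1, AFSC 2, EpiLC 2 and EpiLC 3 in turn).

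Activin A, which is in the AFSC medium, acts through the same receptors as Nodal. Of 22 genes of that pathway tested, 7 (31.8%) were higher, 6 (27.3%) were lower and 9 were not called, beside 22.6% of all genes higher and 24.4% lower, with a median log2 fold change of 0.35. These shares are near those of all genes. Nodal itself had levels of 579, 512 and 868 in the AFSC samples and 349, 293 and 264 in the EpiLC samples (log2 fold change 1.11, SE 0.20, adjusted p = 0.000132). Its inhibitors parted: Lefty2, a direct target of the pathway, had 54.2, 40.3 and 73.0 in the AFSC samples and 444, 427 and 362 in the EpiLC samples (log2 fold change -2.88, SE 0.22, adjusted p = 3.21e-09), while its neighbour on chromosome 1, Lefty1, had 3931, 3333 and 4730.1 in the AFSC samples and 2896, 2816 and 2299 in the EpiLC samples (log2 fold change 0.58, adjusted p = 0.00792; adjusted p = 0.0517 without AFSC 3, where it was highest). Lefty2 was lower in every AFSC sample, and Lefty1 higher in every one. Fst, which encodes the Activin-binding protein follistatin, was higher (149, 121 and 246 in the AFSC samples and 63.3, 61.3 and 46.2 in the EpiLC samples; log2 fold change 1.60, adjusted p = 9e-06), as was Furin, a protease gene that acts on Nodal (46.0 ± 6.05 against 16.7 ± 2.07), and Pcsk6, the other such protease, was lower (3.71 ± 1.42 against 14.5 ± 4.46). The ligands Gdf3 (77.8 ± 13.1 against 254 ± 30.6) and Gdf1 (50.04 ± 31.1 against 173 ± 22.6) were lower. The co-receptor gene Tdgf1 (log2 fold change 0.08, adjusted p = 0.739), the effector genes Smad2 and Smad4 (adjusted p = 0.916 and 0.0719; Smad4, adjusted p = 0.0231 without AFSC 1) and their partner Foxh1 (adjusted p = 0.891) were not called.

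Of 21 BMP pathway genes tested, 6 (28.6%) were higher, 2 (9.52%) were lower and 13 were not called, beside 22.6% of all genes higher and 24.4% lower, with a median log2 fold change of 0.19. The ligand gene Bmp4 was not called (14.5, 9.89 and 14.4 in the AFSC samples and 21.8, 17.1 and 14.4 in the EpiLC samples; log2 fold change -0.45, adjusted p = 0.119), whereas Bmp7 (60.6, 73.2 and 92.3 in the AFSC samples and 6.32, 9.24 and 6.92 in the EpiLC samples; log2 fold change 3.31, SE 0.21, adjusted p = 2.89e-10) and Bmp2 (6.44 ± 0.258 against 0.583 ± 0.0779, log2 fold change 3.41, adjusted p = 3.98e-06) were higher. The secreted BMP antagonists Chrd (34.1 ± 11.01 against 7.04 ± 1.301, log2 fold change 2.26, adjusted p = 4.09e-06) and Nog (10.3, 9.56 and 3.67 in the AFSC samples and 0, 0 and 0.631 in the EpiLC samples; ratio 37.6, 95% interval 6.29 to 1530.0) were higher as well. Of the ID genes, targets that report BMP signalling, Id1 was higher (38.3, 25.9 and 30.4 in the AFSC samples and 20.9, 12.2 and 9.23 in the EpiLC samples; log2 fold change 1.16, adjusted p = 0.0104; adjusted p = 0.0535 without EpiLC 3, where it was lowest) and Id2, Id3 and Id4 were not called.

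**Figure D4:**
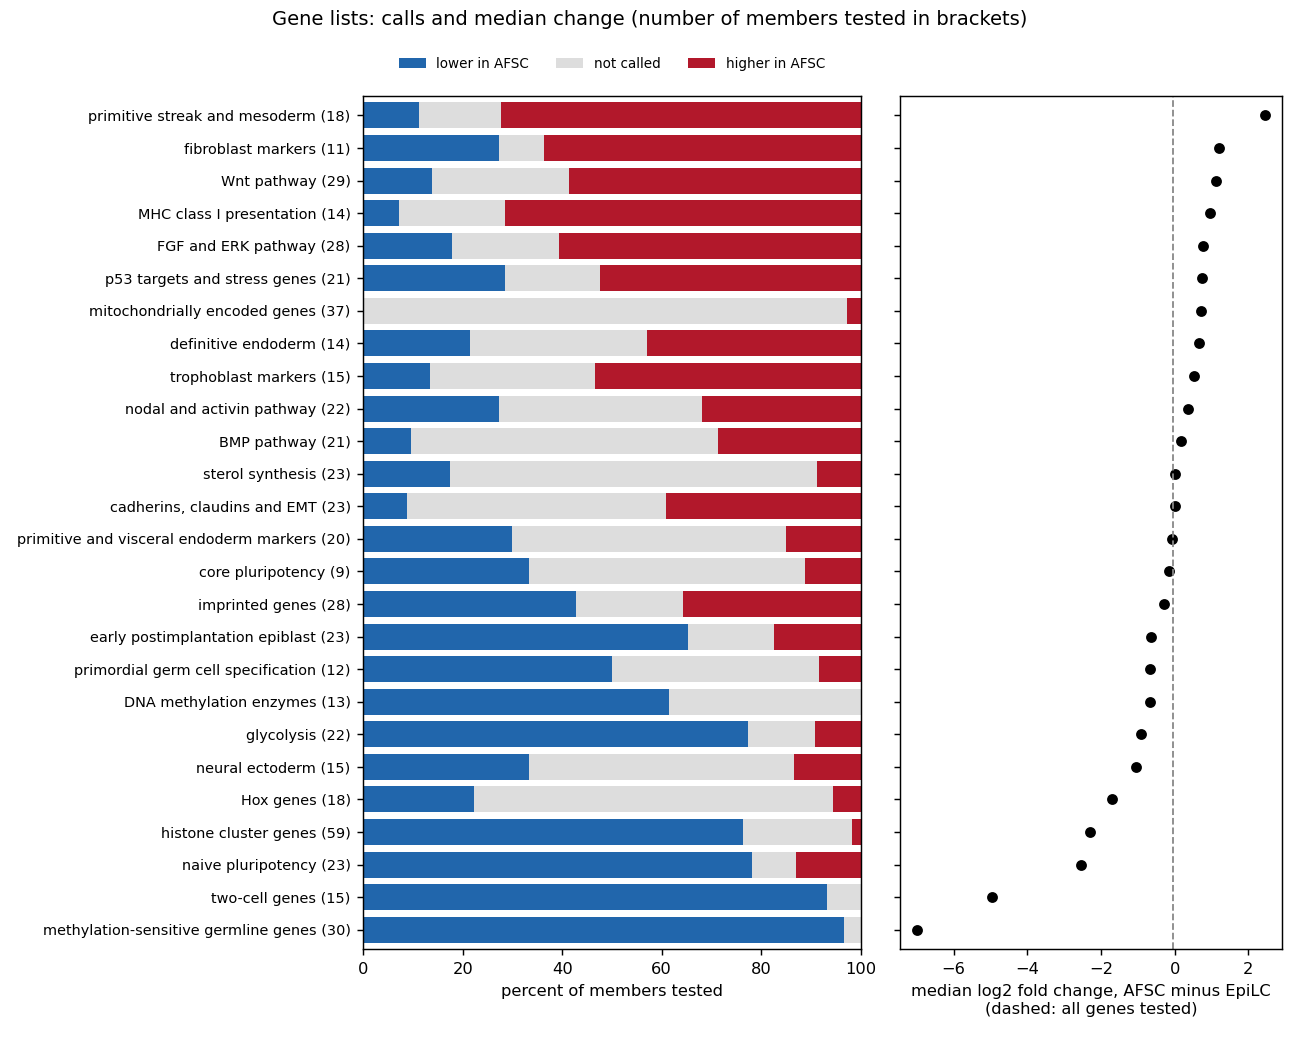
For each of 26 gene lists, the percent of tested members lower in AFSCs (blue), not called (grey) and higher (red) at an adjusted p below 0.05, and the median log2 fold change (AFSC over EpiLC; dashed line, median of all genes tested, -0.03). Germ cell, 2-cell and naive pluripotency genes lie lowest and the primitive streak list highest, at 2.46.

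Genes of cell adhesion and shape moved in part. The adherens junction gene Cdh1, which encodes E-cadherin, was not called (873, 483 and 762 in the AFSC samples and 915, 964 and 849 in the EpiLC samples; log2 fold change -0.37, adjusted p = 0.193), while Cdh2, which encodes N-cadherin, had levels of 26.0, 16.2 and 28.8 in the AFSC samples and 4.58, 3.07 and 1.99 in the EpiLC samples (log2 fold change 2.89, SE 0.30, adjusted p = 2.11e-07). Vim, which encodes the intermediate filament vimentin, had 1688, 1180.0 and 1148 in the AFSC samples and 116, 106 and 116 in the EpiLC samples (log2 fold change 3.57, SE 0.18, adjusted p = 1.54e-11). All AFSC samples exceeded all EpiLC samples in both Cdh2 and Vim. Of the 23 genes of this list 9 (39.1%) were higher, 2 (8.7%) were lower and 12 were not called, and the median was 0.00. Among all genes 22.6% were higher and 24.4% lower. The transcriptional repressor genes Zeb1 and Zeb2 were higher at low levels (5.49 ± 1.46 against 0.521 ± 0.255 and 2.48 ± 0.784 against 0.540 ± 0.249). The tight junction gene Ocln was lower (7.61 ± 2.65 against 18.7 ± 3.65, log2 fold change -1.29, adjusted p = 0.00266), and Epcam was not called (adjusted p = 0.712). In EpiSCs Cdh1 stood at 174 ± 3.66, below all AFSC samples (log2 fold change against EpiSCs 2.04, adjusted p = 1.29e-06).

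Markers of other cell types were measured beside these results. Of 15 trophoblast markers tested, 8 (53.3%) were higher and 2 (13.3%) lower, beside 22.6% and 24.4% of all genes. The list shares Eomes, Hand1 and Cdx2 with the streak genes, and Eomes is among its higher members. The summed level of the trophoblast markers was 2718 to 3570 in AFSCs against 604.0 to 607.1 in EpiLCs. The keratin genes made most of it in both groups, and without Krt8, Krt18 and Krt19 it was 451.7 to 614.3 against 222.9 to 229.7. Krt8 had levels of 1426, 1279 and 1169 in the AFSC samples and 111, 99.98 and 93.7 in the EpiLC samples (log2 fold change 3.67, SE 0.15, adjusted p = 9.21e-13) and Krt19 had 410.2, 360.1 and 256 in the AFSC samples and 13.7, 9.54 and 8.08 in the EpiLC samples (log2 fold change 5.04, SE 0.27, adjusted p = 3.94e-11), while Krt18 had 935 ± 178 against 267 ± 10.04. The trophoblast-defining genes Elf5 and Cdx2 were near 0 in both groups (mean levels 0.0588 and 2.19 in AFSCs), and the giant cell hormone gene Prl3d1 had no count in any of the 6. Tfap2c was at the margin (16.5, 15.4 and 15.8 in the AFSC samples and 13.2, 11.3 and 11.3 in the EpiLC samples; log2 fold change 0.41, adjusted p = 0.0371; adjusted p = 0.0769, 0.0559, 0.073, 0.11 and 0.091 without AFSC 1, AFSC 2, AFSC 3, EpiLC 2 and EpiLC 3 in turn). Of 11 fibroblast markers tested, 7 (63.6%) were higher and 3 (27.3%) lower, beside 22.6% and 24.4% of all genes. Without AFSC 1 and EpiLC 1, 5 fibroblast markers were higher and 3 lower. The summed level was 1182 to 1806 in AFSCs against 220.0 to 266.5 in EpiLCs. The smooth muscle gene Tagln made most of that sum in AFSCs (949, 1649.5 and 1564 in the AFSC samples and 72.9, 60.8 and 50.6 in the EpiLC samples; log2 fold change 4.5, SE 0.23, adjusted p = 2.32e-11), and without it the sums overlapped, at 156.2 to 232.4 and 169.4 to 193.6. Col1a1 had 21.0 ± 6.54 against 3.61 ± 2.56, while Lum, Prrx1 and Postn had means below 1 and Fap no count. Dcn, a proteoglycan gene of fibroblasts, was at 79.8, 59.4 and 54.4 in EpiLCs and 0, 0 and 0.497 in AFSCs (ratio 342, 95% interval 61.1 to 13550.0).

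Of 20 primitive and visceral endoderm markers tested, 3 were higher and 6 lower, beside 22.6% and 24.4% of all genes. The median log2 fold change of these markers was -0.06. Their summed level was 1859 to 2553 in AFSCs and 8103 to 12820 in EpiLCs with Rhox5, and without it the order turned, at 1856 to 2549 in AFSCs and 1154 to 1430.0 in EpiLCs. Sparc, a matrix protein gene, rose (861, 711 and 966 in the AFSC samples and 120.1, 137 and 119.8 in the EpiLC samples; log2 fold change 2.75, SE 0.14, adjusted p = 2.47e-11). The defining genes Ttr, Apoa4 and Fgb had no count in these samples. Of 15 neural genes tested, 2 (13.3%) were higher, 5 (33.3%) lower and 8 not called, beside the same shares of all genes. The median log2 fold change of the neural genes was -1.04. Their summed level was 331.0 to 401.4 in AFSCs against 121.2 to 150.0 in EpiLCs. The intermediate filament gene Nes made up most of it in AFSCs (212, 270.5 and 294 in the AFSC samples and 23.1, 39.0 and 35.4 in the EpiLC samples; log2 fold change 2.99, SE 0.19, adjusted p = 3.14e-10), and without it the sums overlapped, at 80.55 to 118.8 and 98.11 to 111.0. En2, a homeobox gene of the midbrain, was lower (0.511 ± 0.456 against 9.17 ± 0.945, log2 fold change -4.0, adjusted p = 1.32e-06). Sox1, the first neural SOX gene, was low and lower in AFSCs (3.07, 2.40 and 4.93 in the AFSC samples and 8.13, 11.5 and 7.75 in the EpiLC samples; log2 fold change -1.39, adjusted p = 0.00561). Pax6 was near the floor (0.576, 0.099 and 0.177 in the AFSC samples and 0.593, 1.21 and 1.01 in the EpiLC samples; log2 fold change -1.80, adjusted p = 0.0372; adjusted p = 0.13, 0.122, 0.124 and 0.0754 without AFSC 2, AFSC 3, EpiLC 2 and EpiLC 3 in turn). The part of other cell types in these results was not tested.

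Genes of glycolysis, the main energy source of primed cells, were mostly lower in AFSCs. Of 22 tested, 17 (77.3%) were lower, 2 were higher and 3 were not called, beside 24.4% of all genes lower and 22.6% higher. The median log2 fold change was -0.92, and 17 were lower without AFSC 1 and EpiLC 1. The lactate exporter gene Slc16a3, which encodes MCT4 (chromosome 11, 120948480 to 120960868), fell most, with levels of 921, 1069 and 894 in the EpiLC samples and 13.4, 16.1 and 20.6 in the AFSC samples (log2 fold change -5.84, SE 0.20, adjusted p = 6.86e-14). Pdk1, the kinase gene that keeps pyruvate out of mitochondria, had 185, 218 and 231 in the EpiLC samples and 22.5, 29.3 and 27.4 in the AFSC samples (log2 fold change -3.0, SE 0.15, adjusted p = 1.25e-11), and the glucose transporter gene Slc2a1 had 1840.3, 2178 and 1842 in the EpiLC samples and 612, 374 and 592 in the AFSC samples (log2 fold change -1.90, SE 0.19, adjusted p = 1.17e-07). In the 3 genes the AFSC samples lay well below the EpiLC samples. Enzyme genes of the pathway fell by less, among them Aldoa (5646 ± 687 to 1908 ± 290.0), Eno1 (6245 ± 304 to 2702 ± 634) and Gapdh (22079 ± 4342 to 12583 ± 1913, log2 fold change -0.81, adjusted p = 0.00679). Pkm was not called (log2 fold change -0.69, adjusted p = 0.104), with AFSC 1 far below the other AFSC samples (3573, 9430.4 and 7913). It was called lower without AFSC 2 (adjusted p = 0.0459) and with the replicate number as a term of the edgeR model (adjusted p = 0.0125). Eno3, the muscle form of enolase, was higher (135 ± 17.6 against 78.0 ± 7.89). Pdk1 was also low in EpiSCs (10.9 ± 1.62), and Slc16a3 lay there between both groups (135 ± 6.17). Of 23 sterol synthesis genes tested, 2 (8.7%) were higher, 4 (17.4%) lower and 17 not called, with a median of 0.02. Both shares lay below those of all genes. The isomerase gene Ebp had 133 ± 25.1 against 35.1 ± 5.73 (log2 fold change 1.93, adjusted p = 3.21e-07), and Insig1, which holds back the sterol-sensing factors, 161 ± 14.5 against 489.7 ± 42.0 (log2 fold change -1.60, adjusted p = 1.27e-09).

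Imprinted genes, which are expressed from 1 parental copy, moved in both directions. Of 28 tested, 10 (35.7%) were higher, 12 (42.9%) were lower and 6 were not called. Of all genes, 22.6% were higher and 24.4% lower. Mest (chromosome 6, 30723547 to 30748465), a paternally expressed gene, showed the widest difference, with levels of 614, 578 and 579 in the EpiLC samples and 5.12, 2.93 and 3.15 in the AFSC samples (log2 fold change -7.32, SE 0.19, adjusted p = 1.43e-15). Nnat, paternally expressed as well, had 89.1, 98.2 and 93.0 in the EpiLC samples and 5.89, 1.90 and 3.96 in the AFSC samples (log2 fold change -4.58, SE 0.33, adjusted p = 1.66e-09), and Cdkn1c, a maternally expressed inhibitor of the cell cycle, had 72.0, 54.2 and 64.6 in the EpiLC samples and 5.94, 3.97 and 3.56 in the AFSC samples (log2 fold change -3.83, SE 0.31, adjusted p = 8.82e-09). All 3 were close to 0 or low in the AFSC samples and were present in EpiSCs (297 ± 4.97, 105 ± 13.8 and 307 ± 13.0). Plagl1 (0.239 ± 0.138 against 4.36 ± 0.0659, EpiSCs 10.7 ± 0.214) and Peg13 (0.409 ± 0.357 against 10.4 ± 1.72, EpiSCs 15.6 ± 3.88) followed that pattern. H19, a maternally expressed long RNA, had 113, 104 and 97.9 in the EpiLC samples and 4.54, 0 and 0 in the AFSC samples (log2 fold change -6.25, SE 0.68, adjusted p = 6.76e-07), and Kcnq1ot1 and Nap1l5 fell from 1.86 ± 0.740 and 50.6 ± 13.4 to 0.0147 ± 0.0161 and 0.375 ± 0.649. These last 3 were near 0 in EpiSCs too (1.66 ± 2.87, 0.0107 ± 0.0105 and 0.992 ± 0.862).

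On the other side, Grb10, an adaptor gene of growth factor receptors (chromosome 11, 11930508 to 12038683), had levels of 203, 297 and 316 in the AFSC samples and 20.5, 24.9 and 24.1 in the EpiLC samples (log2 fold change 3.55, SE 0.20, adjusted p = 5.25e-11), and Igf2, the growth factor gene whose neighbour is H19, had 35.1, 12.7 and 20.3 in the AFSC samples and 4.64, 2.47 and 1.496 in the EpiLC samples (log2 fold change 2.98, SE 0.37, adjusted p = 2.03e-06). Gnas had 1496, 833 and 677 in the AFSC samples and 199, 147 and 152 in the EpiLC samples (log2 fold change 2.59, SE 0.26, adjusted p = 1.29e-07). The AFSC samples lay above the EpiLC samples in the 3 genes, and AFSC 1 was the highest in Igf2 and Gnas. Sgce, Magel2, Peg10 and Phlda2 were higher by 2.35, 1.41, 1.03 and 1.17 on the log2 scale. Peg3 had 95.2 ± 19.6 against 58.0 ± 6.93 (log2 fold change 0.71, adjusted p = 0.00188). Meg3 was called higher (657, 261 and 384 in the AFSC samples and 264, 296 and 225 in the EpiLC samples; log2 fold change 0.73, adjusted p = 0.0411), and AFSC 2 lay within the EpiLC range. Without AFSC 1 its log2 fold change was 0.30 (adjusted p = 0.351, 0.074, 0.0505 and 0.132 without AFSC 1, EpiLC 1, EpiLC 2 and EpiLC 3 in turn). Fragments do not show which parental copy they came from.

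Of 14 genes of MHC class I presentation tested, 10 (71.4%) were higher, 1 (7.14%) was lower and 3 were not called. The shares of all genes were 22.6% higher and 24.4% lower. The median log2 fold change of the 14 was 0.97. B2m, the light chain of every class I molecule, had levels of 651, 327 and 328 in the AFSC samples and 122, 77.1 and 94.6 in the EpiLC samples (log2 fold change 2.15, SE 0.30, adjusted p = 1.02e-05). The peptide transporter genes Tap1 and Tap2 had 63.9 ± 17.3 and 63.9 ± 16.8 in AFSCs against 19.2 ± 2.62 and 16.3 ± 3.34 in EpiLCs, and the immunoproteasome gene Psmb8 had 98.7 ± 13.0 against 33.4 ± 4.21. The heavy-chain gene H2-K1 was the one that was lower (135, 97.6 and 166 in the AFSC samples and 284, 283 and 259 in the EpiLC samples; log2 fold change -1.05, SE 0.17, adjusted p = 5.66e-05), and H2-Bl was the highest riser (206 ± 19.3 against 33.9 ± 5.81). H2 genes are alike in sequence, so that the split of fragments among them is uncertain. Of 21 p53 target and stress genes tested, 11 (52.4%) were higher, 6 (28.6%) lower and 4 not called, beside the same shares of all genes. The median of the 21 was 0.74. The p53 targets Cdkn1a, which encodes the cell-cycle inhibitor p21 (615 ± 150.0 against 241 ± 23.3), Mdm2 (402 ± 35.0 against 161 ± 20.6) and Phlda3 (886 ± 180.4 against 261 ± 17.8) were higher, and so were the stress genes Atf3 (150.2 ± 13.6 against 35.2 ± 6.15) and Gadd45b (118 ± 65.6 against 26.6 ± 11.8). The heat shock genes Hspa1a (15.6, 18.5 and 18.03 in the EpiLC samples and 1.36, 1.56 and 1.75 in the AFSC samples; log2 fold change -3.44, SE 0.33, adjusted p = 9.7e-08) and Hspa1b (0.935 ± 1.05 against 25.1 ± 2.55) were lower, and they share most of their sequence.

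Histone cluster genes were lower and mitochondrially encoded genes varied with 1 library. Of 59 histone cluster genes tested, 45 (76.3%) were lower, 1 higher and 13 not called, beside 24.4% of all genes lower. The median log2 fold change was -2.30. The H2A gene Hist1h2af had 174 ± 273 against 6181 ± 3961 (log2 fold change -5.23, adjusted p = 0.000285). Together they took 0.0065% to 0.0137% of the counts in AFSCs and 0.0537% to 0.107% in EpiLCs. Most of their transcripts carry no poly(A) tail, and within both groups replicate 1 had the highest share. Without AFSC 1 and EpiLC 1, 42 were lower. The part of RNA selection in these values was not tested. Of 37 mitochondrially encoded genes tested, 1 was higher and 36 were not called (median 0.73), while without AFSC 1 alone 24 were lower and none was higher (median -1.30), so that their direction rested on that library.

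Xist, the long RNA that coats the inactive X chromosome of female cells, was high in every AFSC sample. Its levels were 271, 142 and 291 in the AFSC samples and 7.86, 5.77 and 5.43 in the EpiLC samples (log2 fold change 5.21, SE 0.37, adjusted p = 2.27e-09), and those of EpiSCs were 138 ± 5.56. Y-linked Ddx3y and Eif2s3y had no count in any of the 6 samples, and Kdm5d and Uty had levels of at most 0.205. The antisense gene Tsix was not called (15.7 ± 5.39 against 10.7 ± 4.33, log2 fold change 0.56, adjusted p = 0.217), and without strand its fragments and those of Xist cannot be told apart where they overlap. The median log2 level of 411 X-linked genes, set against 11875 autosomal genes, was 0.0138 higher in AFSCs (0.0784, -0.01 and -0.0423 in the AFSC samples and 0.0609, -0.022 and -0.0542 in the EpiLC samples, each centred over the 6). An exact two-sided permutation test gave p = 0.7, where 3 against 3 samples cannot go below 0.1. Both groups spread alike around 0. Samples of the same replicate number lay close together, with the AFSC sample slightly above in each, and the test took no account of these numbers.

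Chromosome 11 showed the widest shift of the autosomes between the 2 groups. The 1016 genes of chromosome 11 with at least 10 counts in each of the 6 samples had medians, relative to all autosomal genes, of 0.133, 0.213 and 0.19 on the log2 scale in AFSCs and of -0.202, -0.165 and -0.175 in EpiLCs, a difference of 0.359, or 0.372 without AFSC 1 and EpiLC 1. Of 1377 genes tested there, 509 (37.0%) were higher and 176 (12.8%) lower, while of the 15524 genes elsewhere 21.4% were higher and 25.5% lower. The shift had the same direction in all 6 windows of 20 Mb along the chromosome, between 0.249 and 0.446. Over the 18 samples of the series, centred over all of them, the AFSC samples had values of 0.235 to 0.327 on this chromosome and the other 15 samples values of at most -0.005. Smaller shifts with the AFSC samples above were seen on chromosomes 10 (0.174) and 12 (0.162). The widest with the AFSC samples below were on chromosomes 13 (-0.139) and 6 (-0.118). Such shifts were not particular to AFSCs. Centred over the 18 samples, the EpiSC samples had values of 0.410 to 0.422 on chromosome 12. Copy number was not tested. With chromosome 11 left out, 11 of 15 streak genes and 15 of 26 FGF pathway genes were higher. Wnt3, Axin2, Grb10, Krt19 and Lhx1, all on chromosome 11, had log2 fold changes of 2.90 or more, against the median difference of 0.359. Those of Notum (1.04) and Rnf43 (1.81), which lie there too, were nearer to it. Nog, also on chromosome 11, was higher, and Car4 and Slc16a3, on the same chromosome, were lower. The part of the shift in the fold change of any single gene was not tested.

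**Figure D5:**
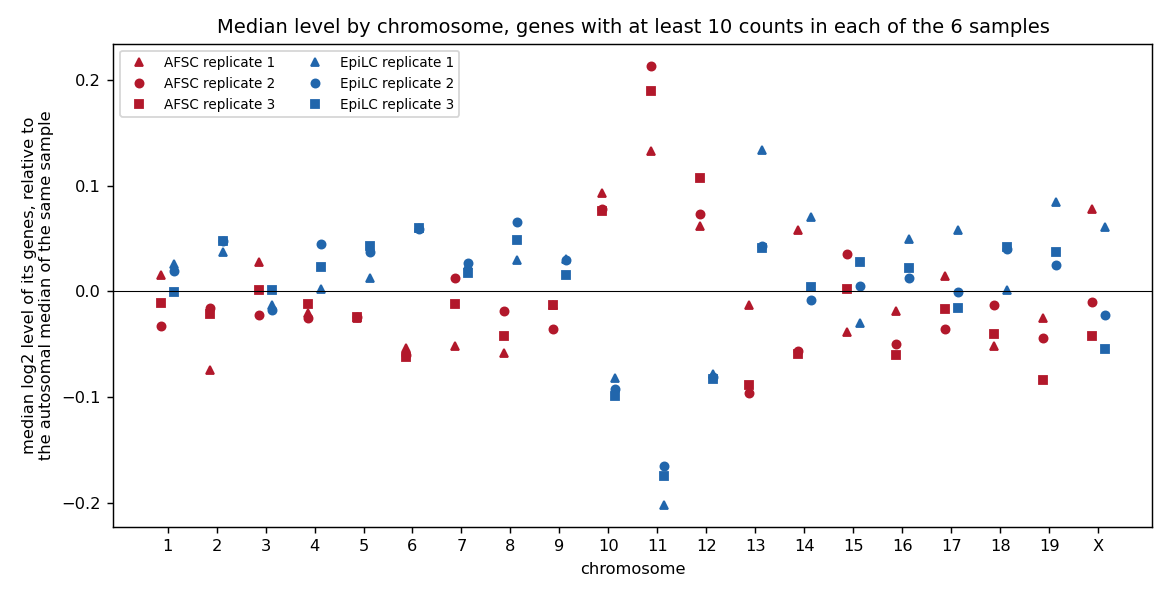
Median log2 level of each chromosome's genes relative to the autosomal median of the same sample (each gene centred over the 6 samples), for chromosomes 1 to 19 and X, with a point for each of the 3 AFSC and 3 EpiLC samples. The AFSC points lie at 0.133 to 0.213 and the EpiLC points at -0.202 to -0.165 on chromosome 11, the widest separation shown.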

How the data were processed

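RNA sequencing counts of 18 samples, 3 for each of 6 cell types, were examined, and AFSC was compared with EpiLC as the labels group them. The deposited counts per gene are whole numbers that the authors made by aligning reads with TopHat2 to GRCm38 (1 mismatch allowed) and counting fragments over Ensembl exons with featureCounts 1.5.0-p1. Each file's header gives the counting command. The counting took fragments that overlapped exons by at least 10 bp, counted a fragment at each place it mapped to and for each gene it overlapped, and used no strand. Copies of gene families and the neighbours Pou5f1 and Gm19553, Eomes and Gm33460, Dnmt3a and Dnmt3aos, Dnmt3l and Aire, Xist and Tsix, and Atf5 and Nup62 therefore share fragments. The length column is the exonic length that featureCounts wrote.

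Genes that reached 10 counts in 3 or more of the 18 samples were tested by edgeR 4.0.16 (quasi-likelihood test, TMM factors, robust, R 4.3.3) in a model of all 6 groups, with Benjamini-Hochberg adjustment over the 16901 genes. Standard errors are the absolute log2 fold change divided by the square root of F. The stricter limits are those of the study's comparison of pairs. Levels use DESeq2 1.42.0 size factors. The study calls its 3 samples of a type biological replicates. The labels do not say whether they came from separate cultures, so p-values measure the spread between these samples, part of which may be technical. Assigned totals ran from 7046111 to 9906473, and each replicate pair differed by more than sampling noise. Replicate numbers are shared between groups in the labels. Deviations of same-numbered samples correlated at 0.292, 0.00636 and 0.0834, the first being the highest of all AFSC and EpiLC pairs. The numbers were not taken as pairs, and an effect shared by the samples numbered 1 was not tested.

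Named genes were the key genes of the lists, the 10 highest and 10 lowest by fold among genes past the stricter limits without overlap and with a gene name, the 8 largest rises and falls in level, and the highest and lowest of each list. Other list members were named after their values were seen. Several lists share members, so that their counts are not independent. The comparison, the lists and the tests were chosen with earlier results of these data known. Bounds and 95% intervals of ratios rest on summed counts scaled by size factors. Promoter windows and start sites came from RefSeq (GRCm38.p6), in a table that lacks some genes. The tests were checked on simulated counts. Alternatives were DESeq2, other scaling factors, other filters, a pseudocount of 1, the replicate block, thinning and leaving out libraries. Genes of the other 2 cell types of the series were not analysed here beyond the shared fit and the values by chromosome, and a few genes are not reported here.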

Additional observations from a re-analysis of the deposited data

How the results depend on the processing

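The counts of genes called changed most with the genes and samples that entered the fit. With at least 10 counts asked of each of the 6 samples (12316 genes tested), 2709 genes were lower at an adjusted p below 0.05, and 295 were higher and 144 lower at the stricter limits, since genes silent in one group left the test. With the 6 AFSC and EpiLC samples alone in the fit (14637 tested) 2748 were lower, and with these 6 thinned to the smallest total (14352 tested) 2612 were lower. Leaving out 1 library at a time gave 3309 to 3760 genes higher and 3585 to 4214 lower, and 557 to 617 and 747 to 845 at the stricter limits. DESeq2 gave 3868 and 4163. The replicate block gave 4008 and 4411, and no paired count moved by over 1.5 times. With that block Gata6, Pkm, Smad4 and Zfp57 gained a call and Rhox2d lost its call. Of AFSC 2 and 3, each correlated best with the EpiLC sample of the other's number (0.13 and 0.233). Over 19 alternatives none of the 242 named genes changed direction while called. Of 4382 values, 100 lost and 28 gained a call, and of 511 list medians 94 moved by over the SD between replicates. The X difference ran from -0.0272 to 0.0571. Alternatives with mitochondrially encoded genes or those of chromosome 11 left out, with 2 libraries left out together and with the block on 6 samples were chosen after the data were seen. Depth limits calls on genes with few counts, such as Rhox2d and Tcstv3.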

Other observations

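Of the genes past the stricter limits, 133 had no count in any of the 3 AFSC libraries, and 19 had none in any EpiLC library, of which 16 carry only clone names. Of the 133, 23 (17.3%) lie on the X chromosome, which holds 3.79% of the genes tested, 48 carry clone names, and 103 had a mean level below 1 in EpiSCs as well. X-linked members of that kind included Fthl17b, Fthl17c and Fthl17f, near copies of a ferritin-like gene whose fragments cannot be assigned to a single copy. The same holds for Rhox2a, Rhox2b, Rhox2c and Rhox2e and for Rhox4b, Rhox4e and Rhox4g. Fragments of copies can be counted at each of them, and other chromosomes hold such families too, so that the share on the X is uncertain. X-linked Rhox1 had EpiLC levels of 44.5, 52.1 and 54.5 and no count in AFSCs or EpiSCs. Prr23a1 and Prr23a3, neighbours on chromosome 9, were likewise without a count in both primed cultures, with means of 28.9 ± 1.97 and 36.7 ± 9.67 in EpiLCs. These genes were chosen for being at 0, so the counts are descriptions.

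The other 30 had a mean level of at least 1 in EpiSCs. Nmral1 had levels of 146, 106 and 97.1 in EpiLCs, a mean of 109 ± 14.7 in EpiSCs and 55.0 ± 10.3 in ESCs, and no count in AFSCs. Hexa, whose product breaks down gangliosides in lysosomes, had a mean of 626 ± 18.6 in ESCs, 171 ± 16.7 in EpiLCs and 33.8 ± 4.55 in EpiSCs and none in AFSCs. Klhl22 fell in the same order, from 286 ± 24.5 in ESCs to 88.8 ± 3.62 in EpiLCs, 8.80 ± 0.294 in EpiSCs and no count in AFSCs. Penk, which encodes the enkephalin precursor, had 167 ± 24.3 in EpiSCs, 17.9 ± 5.45 in EpiLCs and no count in AFSCs. Nmi and Rbm43, neighbours on chromosome 2 within 51924448 to 51973494 (GRCm38), had EpiLC means of 25.0 ± 11.7 and 19.9 ± 3.67 and no count in AFSCs. The genotype of the lines at these loci was not tested.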
